A study of Mus musculus with 10 samples.

Results

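Lysosomes are the acidic compartments in which cells break down proteins, sugars, lipids and whole organelles. Soluble hydrolases (proteases, glycosidases, sulfatases and lipid-cleaving enzymes) work in the lumen. Heavily glycosylated membrane proteins such as LAMP1 and LAMP2 line the boundary, and transporters and channels carry the products out. TFEB is a transcription factor that binds a short palindrome, the CLEAR element, near the start of many of these genes. Every cell type of a limb bud has lysosomes, and phagocytes such as macrophages are known for a large amount of them. The set described here holds 42 genes, 40 of which encode hydrolases, their activators, transporters or lysosomal membrane proteins. The remaining members are Tfeb and Grn, which encodes the secreted lysosomal cofactor progranulin. The genes were given by name, and all 42 were found among the 47729 genes measured after Ensembl identifiers had been matched to symbols. Every member passed the filter on low counts and was tested.

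RNA came from forelimb buds of mouse embryos at embryonic day 11.5 to 12 and somite stages 49 to 51, in 10 libraries. The 5 knockouts were labelled Prx1Cre_+-Cxxc1fl_fl, that is, with a Cre recombinase driven by the Prx1 enhancer, active in limb bud mesenchyme, and with floxed Cxxc1 on both alleles. CXXC1 binds unmethylated CpG dinucleotides and is part of the complexes that methylate histone H3 at lysine 4. Among the 5 controls, control 1 was labelled Prx1Cre_+-Cxxc1fl_wt, controls 2 and 4 CreWT-Cxxc1fl_WT, control 3 CreWT-Cxxc1fl_fl, and control 5 Prx1Cre?-Cxxc1fl_fl with the question mark as in the label. All embryos therefore carried at least 1 floxed allele. Control 1, by its label, carried Cre and 1 floxed allele, so 1 of its Cxxc1 alleles could be recombined where Cre was active. With Cre present, the genotype of control 5 would be that of the knockouts. It was kept as a control, as titled. Each group had 2 embryos from litter A and 1 each from the litters named B, C and D. Cells that the Prx1 enhancer does not reach, such as blood, vessel and ectoderm cells, keep Cxxc1 in this model.

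Library totals ran from 33274911 to 49880815 counts. Levels are given in CPM (counts scaled to a common library total) and changes as the log2 fold change, positive where knockouts were higher, followed by its standard error (SE). Calls are those of edgeR's quasi-likelihood test at a Benjamini-Hochberg adjusted p below 0.05 over all 20562 genes tested, written here as edgeR adjusted p. Cxxc1 was lower in every knockout than in every control, with means of 96.7 ± 6.88 and 75.2 ± 1.23 CPM (SD, n = 5 each) and a log2 fold change of -0.36 (SE 0.05, edgeR adjusted p = 0.000144). Control 5, whose Cre status is marked as unclear, was the lowest control at 89.5 CPM, and the knockouts were at 73.1 to 76.2 CPM. Reads of the floxed exons are not separated from the rest in this gene-level count. The mesenchyme markers that define the tissue were present in every library. Their sum over 8 genes was 1906 to 2033 CPM in controls and 1030 to 1155 CPM in knockouts. Of the 24 macrophage markers listed, 21 rose, 1 fell and 2 did not pass, and their summed level was 87.5 to 116.8 CPM in controls and 310.2 to 358.9 CPM in knockouts. Over all genes tested, 18.1% rose and 17.1% fell. In RNA of a whole bud, fewer cells of a type and less RNA per cell cannot be told apart, nor can more cells and more RNA per cell.

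Promoters are shown first, because the CLEAR element is the best known feature that lysosomal genes share. Of the 42 members, 37 had an entry in the RefSeq promoter table (build GRCm38.p6), which gives 250 bases before and 50 bases after each annotated start. Asah1, Ctsb, Ctsh, Galns and Npc1 had none. The core TCACGTGA, which reads the same on both strands, was found in 5 of the 37 (13.5%), against 304 of all 27025 genes in the table (1.12%). A gene counted as a holder if any of its windows held the motif. Ctsa and Cln3 each have a further window without the core. The shorter E-box CACGTG, which is contained in that core, was found in 12 of the 37 (32.4%), against 8.09% of all genes in the table. The element is known from lysosomal genes, so this difference was given in advance and is no result of these libraries. Both motifs also contain a CpG, and the members' windows held more of them (median 15 against 8 over all genes in the table). This was not adjusted for. The table was not limited to genes that passed the filter on low counts, which all members did. Ctsd (minus strand, chr7:142387778-142388077) and Ctsa (plus strand, chr2:164833523-164833822) are printed because they hold the core and rose in the knockout. Gla (minus strand, chrX:134600956-134601255) and Mcoln1 (plus strand, chr8:3500269-3500568) were chosen after their values had been seen, as holders of the core that did not pass the test. Each is written 5′ to 3′ on the strand of the gene, with the core in capitals.
Ctsd: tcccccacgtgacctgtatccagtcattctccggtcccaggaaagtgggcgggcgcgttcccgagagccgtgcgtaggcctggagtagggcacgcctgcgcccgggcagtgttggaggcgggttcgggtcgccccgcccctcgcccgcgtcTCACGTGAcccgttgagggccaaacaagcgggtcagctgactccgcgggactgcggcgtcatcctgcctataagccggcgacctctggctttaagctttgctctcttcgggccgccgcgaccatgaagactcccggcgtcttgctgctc
Ctsa: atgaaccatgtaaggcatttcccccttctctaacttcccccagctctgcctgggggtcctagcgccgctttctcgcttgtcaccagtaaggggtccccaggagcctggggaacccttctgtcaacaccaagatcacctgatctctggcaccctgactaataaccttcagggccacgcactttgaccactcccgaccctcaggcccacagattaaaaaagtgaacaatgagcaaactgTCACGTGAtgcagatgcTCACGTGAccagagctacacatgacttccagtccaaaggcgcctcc
Mcoln1: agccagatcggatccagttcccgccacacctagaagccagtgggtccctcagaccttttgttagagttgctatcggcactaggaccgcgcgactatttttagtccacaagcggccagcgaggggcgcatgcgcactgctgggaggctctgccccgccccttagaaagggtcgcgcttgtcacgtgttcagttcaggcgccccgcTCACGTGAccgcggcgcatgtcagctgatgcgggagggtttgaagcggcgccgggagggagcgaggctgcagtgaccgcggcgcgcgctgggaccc
Gla: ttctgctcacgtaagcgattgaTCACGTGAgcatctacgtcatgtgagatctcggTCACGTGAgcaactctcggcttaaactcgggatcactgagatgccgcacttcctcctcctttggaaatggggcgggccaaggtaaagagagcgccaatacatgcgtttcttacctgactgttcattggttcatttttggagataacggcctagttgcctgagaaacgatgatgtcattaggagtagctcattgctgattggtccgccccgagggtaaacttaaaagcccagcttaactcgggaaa
Positions are distances in bases from the start base on the strand of the gene, negative before it. The first base of the core lay at -99 in Ctsd, at -13 and 4 in Ctsa, at -46 in Mcoln1 and at -228 and -195 in Gla. The fifth holder was Cln3, at -122.

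The core occurred in members that rose and in members that did not pass. It was found in 2 of the 15 members with an entry that rose, in 3 of the 18 that did not pass and in 0 of the 4 that fell. The E-box was found in 4 of 15, 8 of 18 and 0 of 4. Lamp1 (plus strand, chr8:13158911-13159210), which rose, holds no full core but 4 copies of CACGTG, shown here in capitals.
Lamp1: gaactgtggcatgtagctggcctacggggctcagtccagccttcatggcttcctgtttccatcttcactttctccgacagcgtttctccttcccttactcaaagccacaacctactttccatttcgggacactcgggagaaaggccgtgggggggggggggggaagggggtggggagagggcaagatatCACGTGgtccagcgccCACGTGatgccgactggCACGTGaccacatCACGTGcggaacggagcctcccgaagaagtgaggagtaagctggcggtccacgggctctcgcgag
CpG content, the feature that the CXXC domain of CXXC1 binds, spanned the whole range of the members among those that rose, from 2 to 33 CpG in the 300 bases (median 12). It was 6 to 21 (median 17.5) among those that fell and 3 to 30 (median 17.5) among those that did not pass. The median was 15 over the 37 members and 8 over all genes in the promoter table, expressed here or not. For genes with several windows the one with most CpG was taken. For Ctsa that is the window not printed here, with 15 CpG against 8 in the printed one. Ctsd holds 33 CpG and Ctsk (plus strand, chr3:95498960-95499259), another cathepsin that rose, holds 2, shown in capitals.
Ctsk: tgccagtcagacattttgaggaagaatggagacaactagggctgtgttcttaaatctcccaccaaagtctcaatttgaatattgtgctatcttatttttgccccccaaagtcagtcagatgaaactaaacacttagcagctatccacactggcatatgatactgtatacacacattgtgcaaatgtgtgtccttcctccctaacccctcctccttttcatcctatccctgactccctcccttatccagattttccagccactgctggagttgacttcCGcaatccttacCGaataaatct
A letter match describes a window and says nothing of binding.

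Lysosomal genes moved unevenly in the knockout buds. Most of the proteases (8 of 9) and part of the glycosidases (6 of 11) rose. Of the sulfatases 0 of 5 rose, and of the genes of lipid breakdown and export 0 of 8. At the share of all genes that rose, 18.1%, groups of 5 and 8 genes would hold few rises in any case. Over the alternative fits, 0 to 1 genes rose in each of these 2 groups. Of the 42 members, 17 rose (40.5%), 5 fell (11.9%) and 20 did not pass. Over all genes tested, 35.2% were called, 18.1% higher and 17.1% lower. In 15 of the 42 members every knockout was above every control, and in 4 of the 42 every knockout was below. Over all 20562 genes tested, these counts were 2666 (13.0%) and 2545 (12.4%). The share of members with every knockout below was thus not above that of all genes. The median log2 fold change was 0.14 over the members and -0.001 over all genes. Most changes were modest, since 2 of the 17 rises and 0 of the 5 falls reached 2-fold. The summed level of the 42 genes was 1962 to 2100.2 CPM in controls and 2300.0 to 2396 CPM in knockouts, so the groups did not overlap. Proteases made up 75.8% of that difference between group means and Ctsb alone 37.8%. Glycosidases made up 17.2%, and the lipid genes together were lower by 18.7 CPM. Scaled by library size instead of TMM (the trimmed mean of M values), 19 members rose and 4 fell, and the calls over all genes moved from 51.3% to 62.2% higher. The differences between the role groups were not tested.

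**Figure D1:**
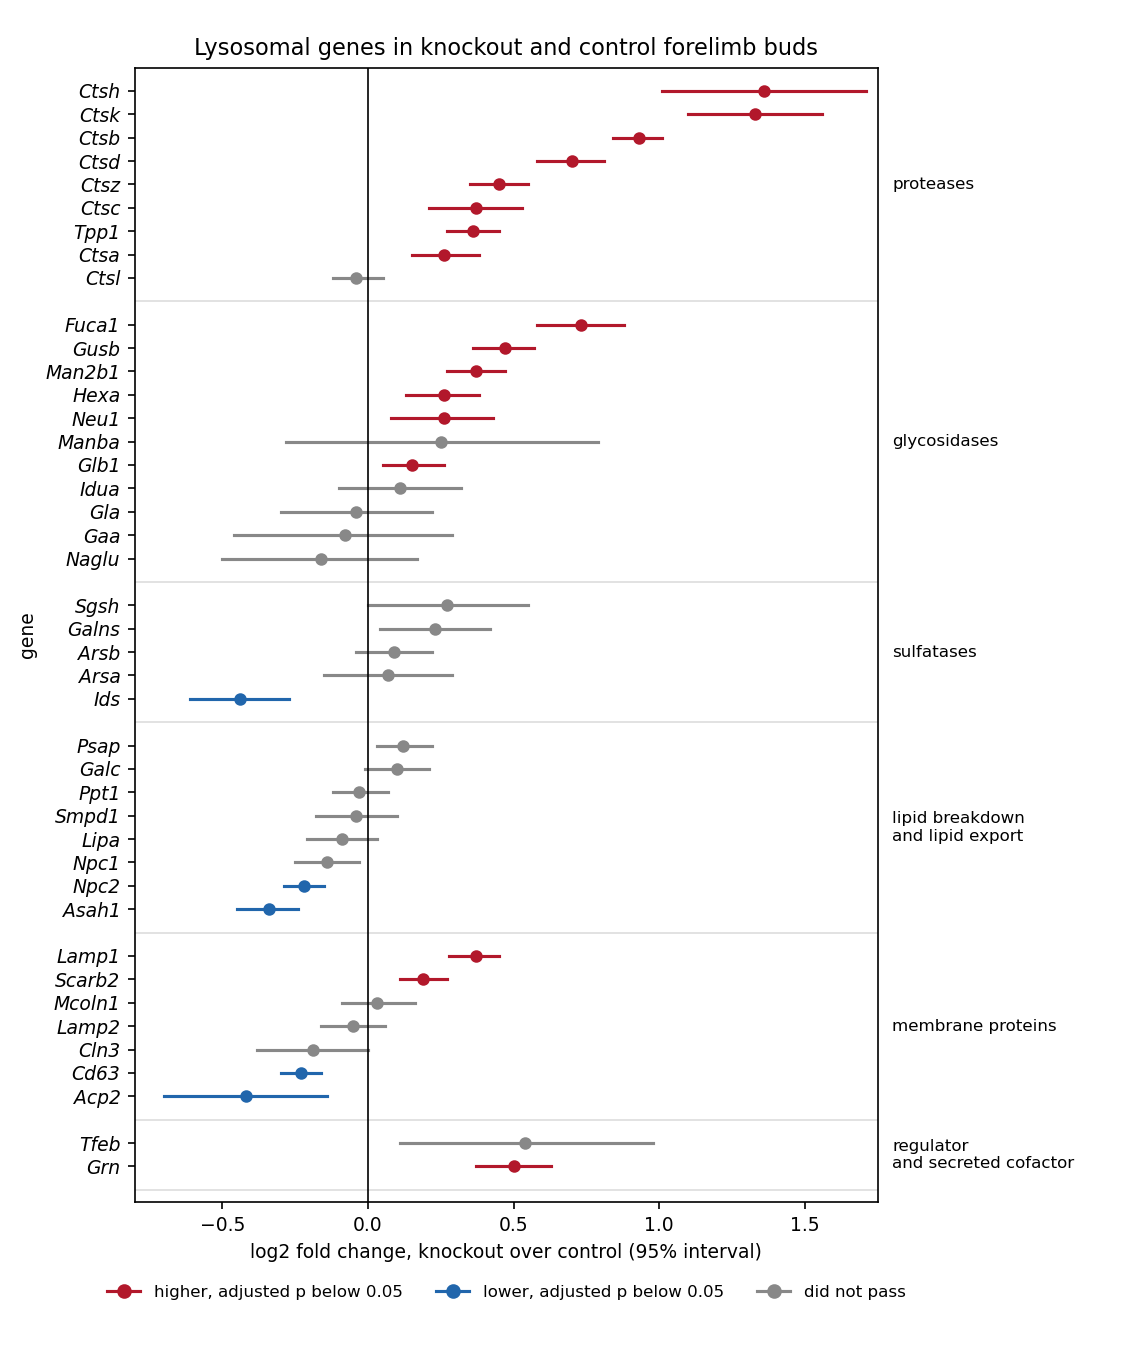
Fitted log2 fold change (x axis, knockout over control) of the 42 genes (y axis), grouped by role, with 95% intervals of 1.96 SE, which are not adjusted for the number of genes. Red points rose and blue points fell at an adjusted p below 0.05, and grey points did not pass. Of the 9 proteases 8 are red, and of the 8 lipid genes 2 are blue and none is red.

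The proteases of the lysosome were the group with most rises, 8 of 9, with 0 falls and a median log2 fold change of 0.45. Cathepsins are mostly cysteine or aspartic proteases that cut proteins delivered by endocytosis and autophagy. Ctsb (chromosome 14, 63122462 to 63145923), a cysteine cathepsin, was at 131.1, 128.9, 142.3, 136.4 and 141.3 CPM in controls 1 to 5. In knockouts 1 to 5 it was at 255.5, 273.6, 243.9, 254.7 and 265.3 CPM. The lowest knockout was well above the highest control, and the log2 fold change was 0.93 (SE 0.04, edgeR adjusted p = 3.25e-08). Fdft1, a gene of sterol synthesis, overlaps 12.8% of the Ctsb exon bases from the other strand and fell from 118.2 ± 12.7 to 75.0 ± 5.49 CPM (SD, n = 5 each). Whether the counting used strand is not stated in the labels, so how reads from such overlaps were assigned is not known.

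Ctsd (chromosome 7, 142375911 to 142388038), the main aspartic protease of lysosomes, was at 94.2, 91.1, 106.5, 100.8 and 111.2 CPM in controls and at 165.0, 161.8, 159.1, 155.6 and 174.9 CPM in knockouts. Again no knockout library reached down to the controls. The log2 fold change was 0.70 (SE 0.06, edgeR adjusted p = 3.06e-06). Ctsz (chromosome 2, 174427493 to 174439039), a carboxypeptidase, was at 41.7, 44.9, 47.1, 45.4 and 47.5 CPM in controls and at 61.8, 64.8, 57.4, 61.9 and 64.4 CPM in knockouts. Its rise was smaller, 0.45 (SE 0.05, edgeR adjusted p = 3.63e-05), and the groups were separate as well.

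The largest rises by fold were those of proteases at low level. Ctsh (chromosome 9, 90054152 to 90076089), an aminopeptidase, stood at 4.36, 2.67, 3.64, 4.78 and 4.83 CPM in controls and at 9.15, 9.64, 8.42, 11.2 and 13.7 CPM in knockouts. Knockout 5 was the highest library, and the log2 fold change was 1.36 (SE 0.18, edgeR adjusted p = 0.000105). Ctsk (chromosome 3, 95499256 to 95509362), a collagen-cutting protease known from osteoclasts, was at 3.53, 3.83, 4.23, 3.65 and 3.1 CPM in controls. In knockouts it was at 8.75, 8.63, 11.4, 8.82 and 8.65 CPM, with knockout 3 above the 4 others. Its log2 fold change was 1.33 (SE 0.12, edgeR adjusted p = 4.41e-06). Of 8 osteoclast markers, Acp5 and Tnfrsf11a rose, Nfatc1 fell, 3 did not pass and Dcstamp and Atp6v0d2 were too low to be tested. Of the 6 tested, 33.3% rose and 16.7% fell, against 18.1% and 17.1% of all genes. Acp5 went from 7.17 ± 0.833 to 13.3 ± 3.61 CPM (SD, n = 5 each), with no overlap (0.89, SE 0.17, edgeR adjusted p = 0.00173). The sum of those 8 was 35.4 to 49.0 CPM in controls and 32.9 to 43.4 CPM in knockouts, which overlap. That sum joins 2 markers that rose and 1 that fell, and 3 of the 8 were below 1 CPM in all libraries.

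Smaller rises were found for Ctsc, which activates granule proteases (0.37, SE 0.08), for the tripeptidyl peptidase gene Tpp1 (0.36, SE 0.05) and for Ctsa, the protective protein of other hydrolases (0.26, SE 0.06). The groups overlapped for Ctsa, where control 3 stood at 80.8 CPM and the other controls at 66.4 to 70.5 CPM. Pltp, a lipid transfer protein gene, overlaps 10.5% of the Ctsa exon bases from the other strand and rose as well (0.77, SE 0.12). The calls of Ctsc and Ctsa were lost without litter A (log2 fold changes 0.27 and 0.24, edgeR adjusted p = 0.0685 and 0.0779, 3 against 3). Ctsl, another cysteine cathepsin, was the protease that did not pass. It was at 83.0 to 94.4 CPM in controls and 81.7 to 86.6 CPM in knockouts, and its 95% interval of the log2 fold change, -0.12 to 0.05, lay below that of Ctsb.

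**Figure D2:**
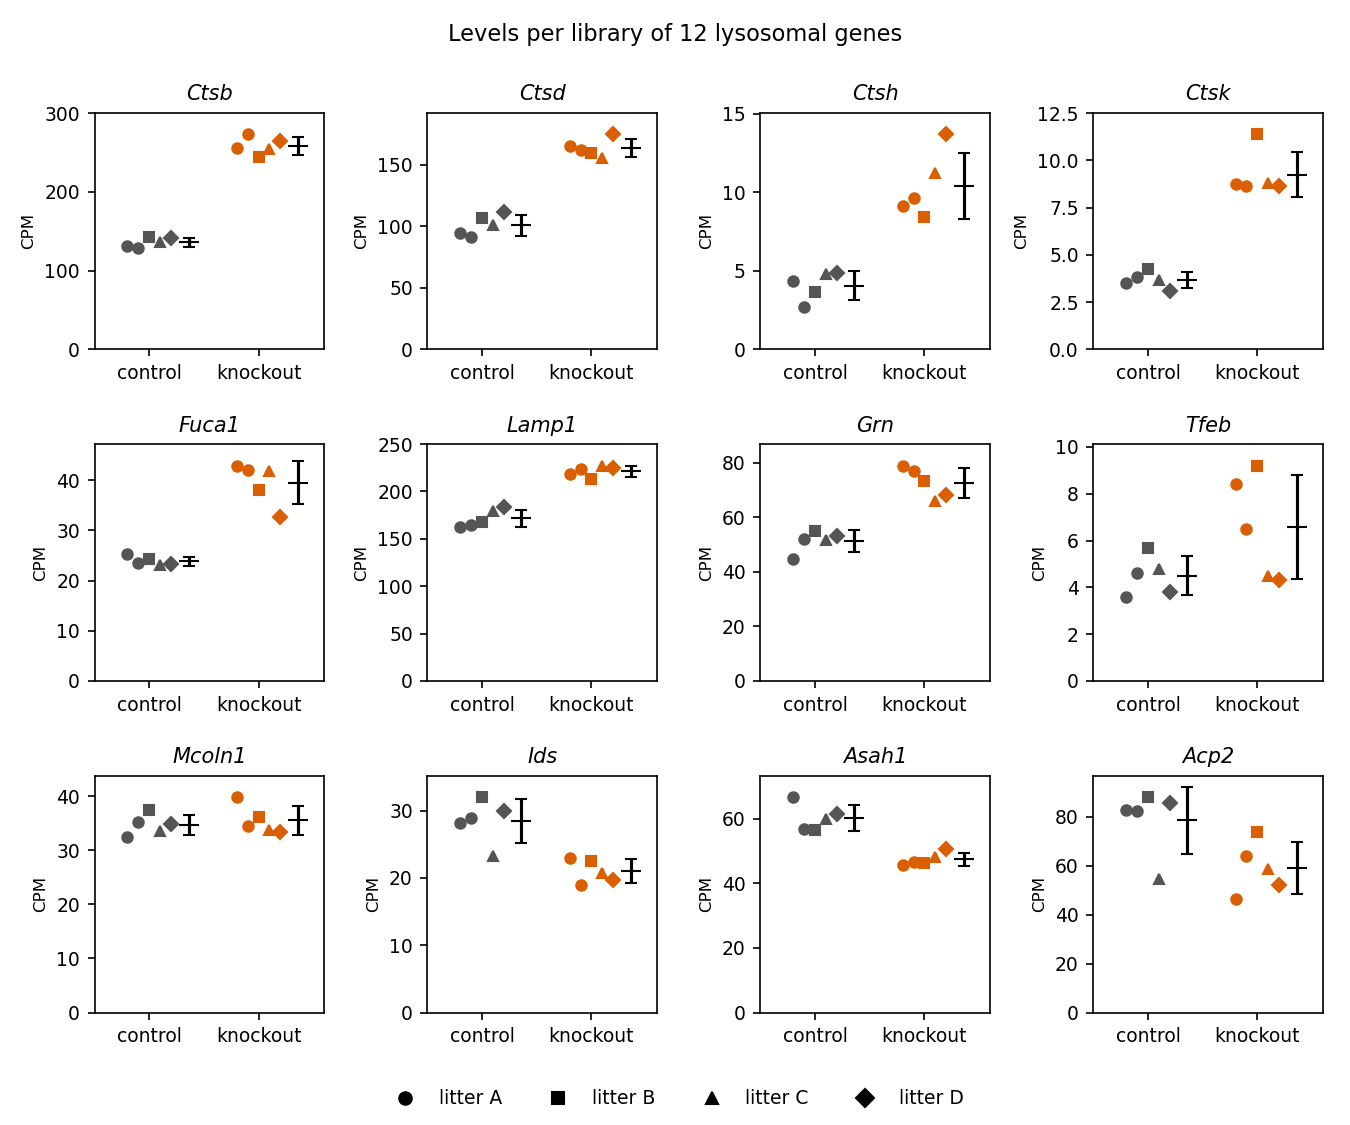
Level in CPM (y axis, from 0) of 12 lysosomal genes in each of the 5 control (grey) and 5 knockout (orange) libraries, with 1 marker shape per litter and the mean ± SD in black. The groups are apart for Ctsb, Ctsd, Ctsh, Ctsk, Fuca1, Lamp1, Grn, Ids and Asah1, and overlap for Tfeb, Mcoln1 and Acp2.

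Of the 11 glycosidases, which remove sugars from glycoproteins and glycolipids, 6 rose, 0 fell and 5 did not pass. Their median log2 fold change was 0.25, and it was 0.12 without control 1 and 0.13 without both control 1 and knockout 3. Fuca1 (chromosome 4, 135920735 to 135940311), which removes fucose, was at 25.2, 23.4, 24.3, 23.0 and 23.3 CPM in controls and at 42.9, 42.1, 38.1, 41.8 and 32.7 CPM in knockouts. Knockout 5 was the lowest of its group, still above all controls, and the log2 fold change was 0.73 (SE 0.07, edgeR adjusted p = 1.56e-05). Gusb (chromosome 5, 129989011 to 130003049), the beta-glucuronidase gene, was at 46.7, 47.5, 48.0, 55.2 and 49.9 CPM in controls and at 69.8, 69.4, 66.9, 71.2 and 64.7 CPM in knockouts. It rose by less, 0.47 (SE 0.05, edgeR adjusted p = 3.98e-05), and the groups did not overlap. Man2b1, an alpha-mannosidase (0.37, SE 0.05), Hexa, a subunit of beta-hexosaminidase (0.26, SE 0.06), Neu1, a sialidase (0.26, SE 0.09), and Glb1, the beta-galactosidase (0.15, SE 0.05), rose as well. Neu1 and Glb1 were close to the threshold (edgeR adjusted p = 0.0412 for Neu1 and 0.0413 for Glb1). Hexa, Neu1 and Glb1 lost their calls without litter A (0.22, 0.28 and 0.12, edgeR adjusted p = 0.107, 0.143 and 0.31), which left 3 glycosidases called. With a replicate block by number or by litter Glb1 did not pass (edgeR adjusted p = 0.0797 and 0.0562).

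Among the 5 glycosidases that did not pass, spread between embryos was large in 2. Manba, a beta-mannosidase, ranged from 3.2 to 9.83 CPM over the controls, a coefficient of variation of 47.0%, and from 4.85 to 8.51 CPM over the knockouts. Gaa, which degrades glycogen, ranged from 22.1 to 48.4 CPM over controls and from 26.6 to 39.5 CPM over knockouts. For Gaa the within-litter log2 ratio was 0.53 in litter A and -0.86 in litter B. Gla, Idua and Naglu lay between -0.16 and 0.11 in log2 fold change. Their 95% intervals were -0.30 to 0.22 for Gla, -0.10 to 0.32 for Idua and -0.50 to 0.17 for Naglu.

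The sulfatases, which strip sulfate from glycosaminoglycans and sulfolipids, gave 0 rises and 1 fall of 5. Over all genes tested, 18.1% were higher and 17.1% lower. Ids (chromosome X, 70343069 to 70365084), which acts on heparan and dermatan sulfate, was at 28.1, 28.9, 32.0, 23.3 and 30.0 CPM in controls and at 23.0, 18.9, 22.5, 20.8 and 19.7 CPM in knockouts. Control 4 was the lowest control, just above the highest knockout, and the log2 fold change was -0.44 (SE 0.09, edgeR adjusted p = 0.00197). Sgsh (0.27, SE 0.14), Galns (0.23, SE 0.10), Arsb (0.09, SE 0.06) and Arsa (0.07, SE 0.11) did not pass. Sgsh had its highest level in knockout 1, at 17.2 CPM, and its lowest knockout level in knockout 5, at 9.95 CPM, within the control range of 8.74 to 12.0 CPM.

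Genes of lipid breakdown and lipid export gave 0 rises and 2 falls of 8 (median -0.06, and -0.04 without knockout 4). The share that fell was 25.0%, against 17.1% of all genes tested. Asah1 (chromosome 8, 41340197 to 41374773), the acid ceramidase gene, was at 66.7, 56.7, 56.5, 60.0 and 61.4 CPM in controls and at 45.6, 46.5, 46.2, 48.3 and 50.6 CPM in knockouts. The groups were apart, with a log2 fold change of -0.34 (SE 0.06, edgeR adjusted p = 0.000474). Npc2 (chromosome 12, 84754562 to 84773152), a carrier that hands cholesterol to NPC1, was at 119.8, 116.7, 117.1, 120.6 and 120.8 CPM in controls and at 104.9, 102.9, 98.0, 99.4 and 104.9 CPM in knockouts. The fall was small, -0.22 (SE 0.04, edgeR adjusted p = 0.000414), and the groups were apart. Controls varied by 1.67% and knockouts by 3.12% (coefficient of variation). Npc1, the membrane protein that exports cholesterol, had means of 56.5 ± 4.20 and 51.2 ± 1.76 CPM (SD, n = 5 each) and missed the threshold (edgeR adjusted p = 0.0694). It passed without control 5 (-0.17, edgeR adjusted p = 0.0307).

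The other 5 lipid genes did not pass. Psap, precursor of the saposins that present sphingolipids to their hydrolases, had means of 200.5 ± 11.9 and 218.4 ± 7.77 CPM (0.12, edgeR adjusted p = 0.0623, n = 5 each). It passed without control 3 or control 5 (0.14 each, edgeR adjusted p = 0.0358 and 0.0416) and when scaled by library size (0.18, edgeR adjusted p = 0.0191). The 95% intervals of the log2 fold change were -0.01 to 0.21 for Galc (galactosylceramidase), -0.12 to 0.07 for Ppt1 (palmitoyl-protein thioesterase), -0.18 to 0.10 for Smpd1 (acid sphingomyelinase) and -0.21 to 0.03 for Lipa (acid lipase).

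Of the 7 lysosomal membrane proteins, 2 rose, 2 fell and 3 did not pass. Over all genes tested, 18.1% were higher and 17.1% lower, so a group of this size would hold few of either in any case. Lamp1 (chromosome 8, 13159161 to 13175338), a main glycoprotein of the limiting membrane, was at 162.3, 164.7, 168.0, 179.6 and 183.3 CPM in controls and at 218.5, 224.0, 212.9, 227.3 and 225.0 CPM in knockouts. All knockouts were above all controls (0.37, SE 0.04, edgeR adjusted p = 5.15e-05). Its relative Lamp2 had means of 71.4 ± 3.47 and 68.9 ± 4.76 CPM (SD, n = 5 each), did not pass and had an interval of -0.16 to 0.06. Scarb2, the receptor that carries glucocerebrosidase to lysosomes, rose slightly (0.19, SE 0.04). Mcoln1 (chromosome 8, 3500457 to 3515232), a calcium channel, was at 32.4, 35.2, 37.4, 33.6 and 34.8 CPM in controls and at 39.8, 34.5, 36.2, 33.7 and 33.4 CPM in knockouts. The groups overlapped, and the interval of the log2 fold change was -0.09 to 0.16. Cln3, a membrane protein mutated in Batten disease, had means of 13.3 ± 1.30 and 11.7 ± 1.31 CPM and missed the threshold (edgeR adjusted p = 0.153, n = 5 each).

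Cd63 (chromosome 10, 128900989 to 128912822), a tetraspanin of late endosomes and exosomes, was at 121.4, 118.8, 114.3, 120.5 and 121.6 CPM in controls and at 100.7, 97.4, 102.6, 102.0 and 104.7 CPM in knockouts. Its fall was small but without overlap (-0.23, SE 0.04, edgeR adjusted p = 0.000314). Acp2 (chromosome 2, 91202885 to 91214098), the lysosomal acid phosphatase, was at 82.9, 82.2, 88.0, 54.5 and 85.7 CPM in controls and at 46.4, 63.8, 73.9, 58.5 and 52.0 CPM in knockouts. Control 4 stood far below the other controls and inside the knockout range. The log2 fold change of Acp2 was -0.42 (SE 0.14, edgeR adjusted p = 0.0373), and within litter C, which holds control 4, the log2 ratio was 0.10. Its call was lost without any one of controls 1, 2, 3 or 5 or knockouts 1, 4 or 5, and without litter A (-0.31, edgeR adjusted p = 0.305). Ddb2, a DNA repair gene, overlaps 12.6% of the Acp2 exon bases from the other strand, with means of 14.2 ± 1.28 and 11.9 ± 1.23 CPM (SD, n = 5 each).

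Tfeb, Manba and Ctsh had the lowest levels per length in controls, and neighbours among these 3 overlapped. Tfeb lies on chromosome 17 (47737030 to 47792419). Its level was 3.57, 4.62, 5.7, 4.78 and 3.82 CPM in controls and 8.4, 6.51, 9.2, 4.47 and 4.32 CPM in knockouts. Knockouts 1, 2 and 3 were above all controls, and knockouts 4 and 5 were within their range. Tfeb did not pass (0.54, SE 0.22, edgeR adjusted p = 0.0764), and it passed without knockout 4 or 5 (0.66 each, edgeR adjusted p = 0.0386 and 0.0307) and with DESeq2 (0.55, adjusted p = 0.0466). Grn (chromosome 11, 102430315 to 102437048) was at 44.6, 52.2, 54.9, 51.8 and 53.2 CPM in controls and at 79.0, 77.1, 73.2, 66.1 and 68.1 CPM in knockouts. The groups were apart (0.50, SE 0.07, edgeR adjusted p = 0.000133).

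Within litters, 21 of the 22 called members moved in the called direction in all 4, and the exception was Acp2. The fit used these same libraries, so the calls in part ensure this. For Ctsb the log2 ratio was 1.02 in litter A, 0.78 in litter B, 0.90 in litter C and 0.91 in litter D. Litter A had the largest ratio of the 4 for Ctsb, Ctsd, Grn, Gusb, Ctsz and Lamp1, among others. For Ctsh and Ctsk the largest ratio was in litter D. Without litter A, 3 against 3, 12 members rose and 4 fell.

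**Figure D3:**
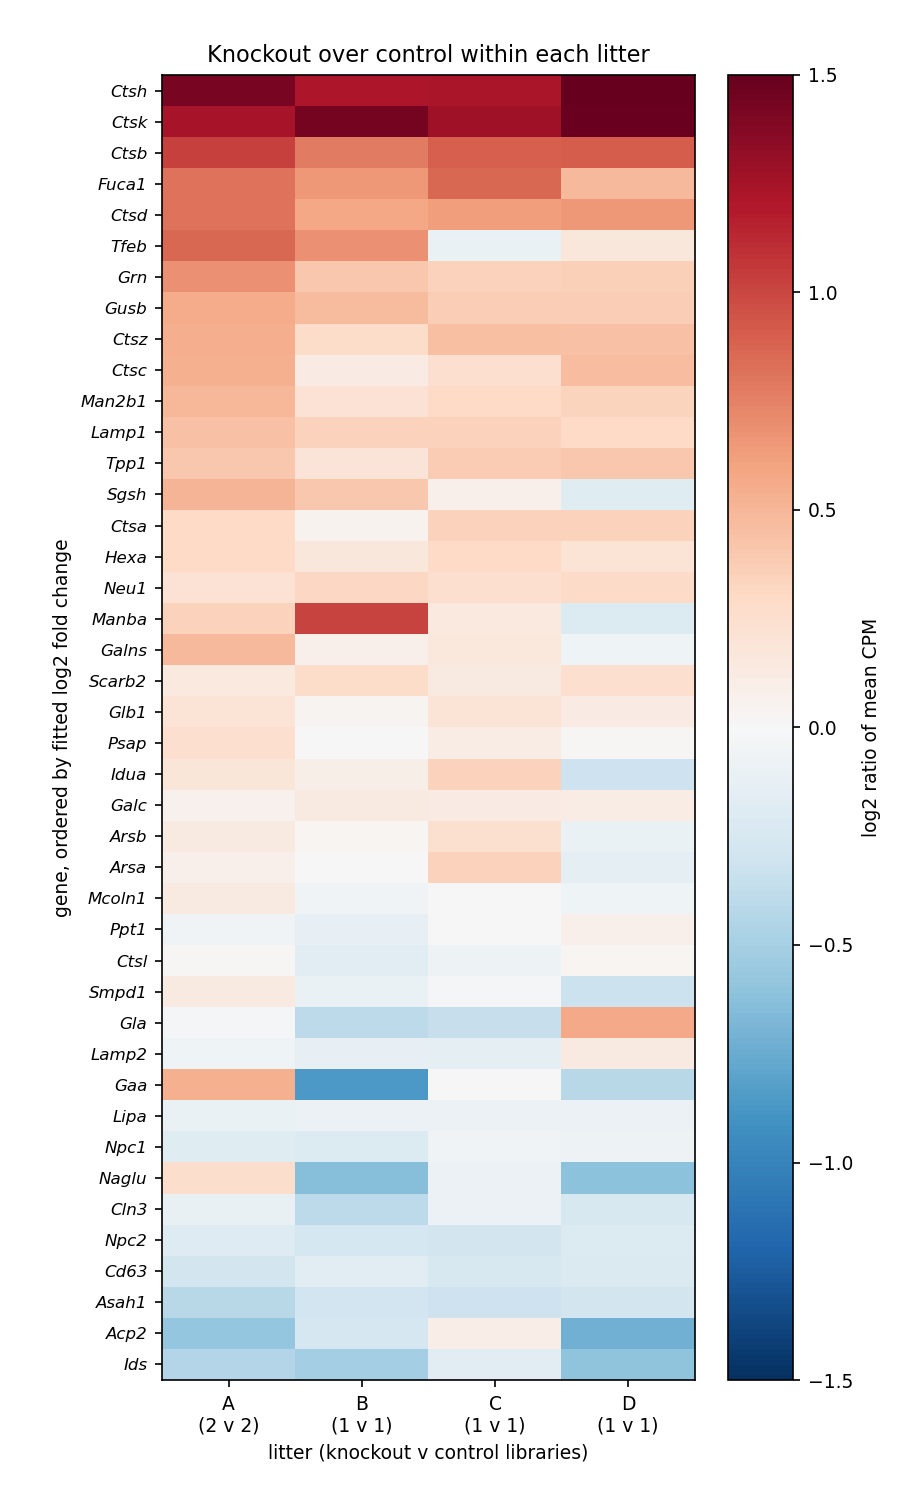
Log2 ratio of mean CPM, knockout over control, within each of the 4 litters (columns) for the 42 genes (rows, ordered by the fitted log2 fold change), with red above 0 and blue below 0. Litter A compares 2 with 2 libraries and the others 1 with 1. The 5 uppermost rows are red in all litters, Tfeb below them is pale blue in litter C at -0.10, and Acp2, near the bottom, is pale red in litter C at 0.10.

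Compared per length, as CPM per kilobase of merged exons, the controls held most of Psap (73.1), Lamp1 (64.1), Ctsd (42.9), Cd63 (32.4), Ctsz (31.5) and Ctsb (22.5). At the other end were Ctsh (0.901), Manba (0.808) and Tfeb (0.793). Of the 41 pairs of neighbours in this order, 33 overlapped in their control values. Among the highest genes Psap and Lamp1 overlapped, as did Cd63 and Ctsz, while Lamp1 and Ctsd did not. In knockouts Lamp1 stood at 82.8, Psap at 79.6, Ctsd at 69.5, Ctsz at 43.1, Ctsb at 42.7 and Cd63 at 27.6 CPM per kilobase. Merged exons overstate the length of the transcripts that are used, which lowers these values for genes with many annotated isoforms.

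Other genes of the pathway, from lists outside the 42 members, gave 25 rises, 18 falls and 77 that did not pass among 120 tested (6 more were too low to be tested). Together 35.8% were called, near the share of all genes. Of 28 further hydrolases and cofactors tested, 8 rose and 3 fell (39.3% called, against 35.2% of all genes). Lgmn, the asparagine-cutting protease legumain, went from 36.1 ± 1.31 to 72.2 ± 3.73 CPM (1.00, SE 0.05), and Ctss, a cathepsin of antigen-presenting cells, from 3.43 ± 0.751 to 8.18 ± 1.29 CPM (1.25, SE 0.16; SD, n = 5 each). Man2b2, a further mannosidase, rose by 0.96 (SE 0.12), and Cpq, a carboxypeptidase, was at -0.73 (SE 0.09). Of 25 further membrane proteins, 5 rose and 3 fell (32.0% called). The smallest adjusted p were those of Slc11a1, a metal transporter of phagosomes (1.51, SE 0.21), and of the sialic acid exporter Slc17a5 (-0.38, SE 0.07).

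Subunits of the vacuolar ATPase, the pump that acidifies lysosomes, gave 2 rises and 2 falls of 20 tested, with a median of 0.08. Called were 20.0% of them, against 35.2% of all genes. Atp6v1g1 (-0.32, SE 0.05) and Atp6v1g2 (-0.90, SE 0.14) fell, and Atp6v0c (0.18, SE 0.05) and Atp6v0e2 (0.33, SE 0.10) rose. Of 9 genes that tag enzymes with mannose 6-phosphate or sort them, M6pr (0.32, SE 0.05) and Gga1 (0.19, SE 0.05) rose, Sort1 (-0.39, SE 0.05) fell and 6 did not pass (33.3% called). Of 17 relatives of Tfeb and genes of mTORC1 control at the lysosome, 6 rose and 3 fell (52.9% called). Tfec, a relative of Tfeb known from myeloid cells, went from 0.595 ± 0.157 to 2.47 ± 0.886 CPM (2.04, SE 0.27), Mitf was at -0.70 (SE 0.16), and Tfe3 did not pass (-0.04, SE 0.11). Of 21 autophagy genes, 2 rose (9.52%) and 6 fell (28.6%), against 18.1% and 17.1% of all genes. Ulk2, a kinase that starts autophagy, was at -0.76 (SE 0.07), Map1lc3a, of the LC3 family on autophagosomes, at -0.67 (SE 0.06) and Gabarap, of the related GABARAP family, at -0.33 (SE 0.04), while the lipid scramblase gene Atg9b rose by 1.83 (SE 0.17).

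Markers of other cell types moved in the same libraries. Csf1r, the receptor that macrophages depend on, was at 11.9, 11.5, 14.3, 11.4 and 14.8 CPM in controls and at 47.6, 50.9, 50.8, 47.2 and 52.2 CPM in knockouts. Adgre1, the F4/80 antigen, rose by 2.64 (SE 0.10) and C1qb, of the complement C1q, by 2.19 (SE 0.08). The median log2 fold change of the 24 macrophage markers was 1.72, and Cd163 and Lyve1 were below 1 CPM in all libraries. Endothelial markers (7 of 8), erythroid genes (9 of 10), ectoderm markers (6 of 9) and muscle precursor genes (5 of 7) also rose, and mesenchyme markers fell (5 of 8). The summed erythroid level, 3052 to 3613 CPM in controls, was 3824 to 7971 CPM in knockouts. Neural crest markers gave 0 rises and 2 falls of 6. Over all genes tested, 18.1% rose and 17.1% fell. The part of these cell types in the changes of the lysosomal genes was not tested.

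**Figure D4:**
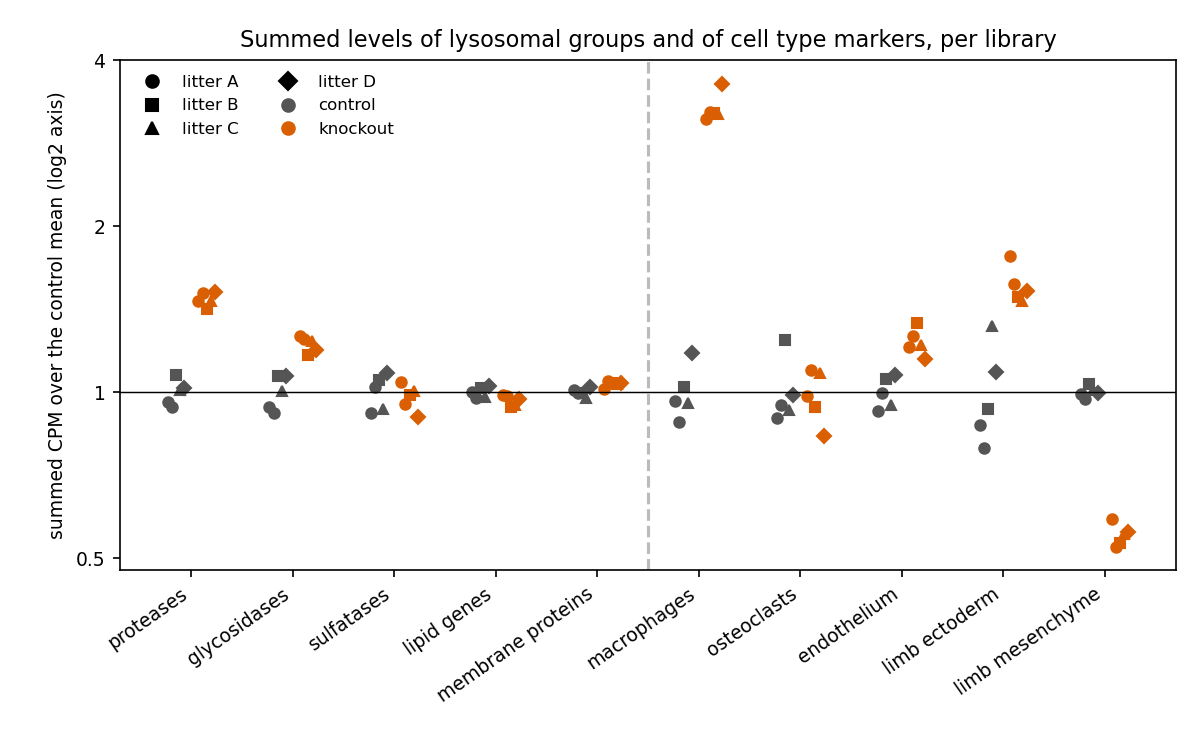
Summed CPM of 5 lysosomal groups (left of the dashed line) and 5 lists of cell type markers (right), each divided by its control mean, on a log2 axis, with 1 point per library, grey for controls and orange for knockouts, and 1 shape per litter. Knockout proteases lie above all controls at a mean ratio of 1.47 and macrophage markers at 3.27, while sulfatases (0.978) and osteoclast markers (0.988) overlap with the controls. The osteoclast sum joins 2 markers that rose and 1 that fell.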

How the data were processed

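RNA was extracted with a Direct-zol kit and made into libraries with a TrueSeq RNA kit, per the labels' protocols. The authors deposited estimated counts per Ensembl gene. The tools listed are DESeq2 1.16.1, R 3.4.1 and Salmon 0.8.2, and the build is mm10, per the submitters' processing notes, which give no roles. The counts were rounded to whole numbers here. A second deposited table, named FPKM, held a signal equal to these counts divided by 1 factor per library (100.0% of values above 0 within 0.01 of a count) and served as an alternative, as log2 of the value plus 1 in limma 3.58.1. Symbols and coordinates came from GENCODE M21 (GRCm38), which named 47310 of the 47729 genes.

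Genes had to pass filterByExpr with a count of at least 10 and a total of at least 15. The quasi-likelihood test of edgeR 4.0.16 (R 4.3.3) was then run on TMM-scaled libraries without covariates, after a check on simulated data. The SE is the absolute log2 fold change over the square root of F. The members and lists were chosen with earlier results of these data known. Values per library are given for Tfeb, Lamp1, Ctsd and Mcoln1, for the 8 largest called rises and for the called falls (at most 8). Of other lists, up to 4 genes with the smallest adjusted p were open to naming. They are given as means or fold changes, and Csf1r per library. Other genes named, and the promoters of Lamp1 and Ctsk, were chosen after their values had been seen. Replicate numbers follow the litters in the labels, and deviations from the group means correlated at -0.0133, 0.155, -0.0245, 0.0416 and 0.2 in pairs 1 to 5. Alternatives changed the tool (DESeq2 1.42.0), scaling, filter, table, block, somite stage and libraries. Nothing in the labels states that embryos were pooled.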

Additional observations from a re-analysis of the deposited data

Results flagged for a closer look

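Each member was checked for 1 library far from the other 4 of its group (gap over range above 0.71), in 84 groups of 5, of which chance flags about 1 in 20. Ctsa in control 3 was at 80.8 CPM, with the other controls at 66.4 to 70.5 CPM. Ctsk in knockout 3 was at 11.4 CPM, with the other knockouts at 8.63 to 8.82 CPM. Acp2 in control 4 was at 54.5 CPM, with the other controls at 82.2 to 88.0 CPM.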

How the results depend on the processing

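Over 20 alternatives, 32 of the 42 members kept their side of the threshold, and none of the 22 called members changed direction. Between 12 and 19 members rose and 4 or 5 fell (15 to 18 and 4 to 5 when 1 library was left out), with a median log2 fold change of 0.09 to 0.19 (0.11 to 0.16). Of the 9 proteases 6 to 8 rose, and of the 11 glycosidases 3 to 6. Without litter A, which leaves 6 libraries, 2002 of all genes were higher and 2021 lower, and the calls of Ctsa, Ctsc, Hexa, Glb1, Neu1 and Acp2 were lost. Leaving out 1 library gave 3183 to 3600 higher and 3096 to 3428 lower. Glb1 lost its call in 15 alternatives, Acp2 in 11 and Neu1 in 10, while Tfeb and Psap gained one in 3 each, Galns in 2 and Npc1 in 1. With the replicate block by number or by litter 16 members rose and 5 fell, the loss of Glb1 being the one change of call. With only the controls labelled CreWT, the calls of Glb1, Neu1 and Acp2 were lost and 0 were gained. Signs turned for 7 genes that passed in no fit. Scaled by library size, Ctsl and Gla were at 0.01, Smpd1 at 0.02 and Ppt1 at 0.03. Without control 1 and knockout 3, the libraries with high Xist, Gla was at 0.07, Ppt1 at 0.02 and Lamp2 at 0.00, and without litter A Mcoln1 was at -0.04. With 1 library left out, Gaa ran from -0.22 to 0.04, Gla from -0.13 to 0.03, Mcoln1 from -0.01 to 0.06, Ppt1 from -0.04 to 0.00 and Smpd1 from -0.08 to 0.00. The causes were not tested. Among members under 10 CPM, control coefficients of variation ran from 8.73% (Galns) to 47.0% (Manba), and Gaa, at 36.4 CPM, had 31.6%, so the part of depth in this spread was not tested.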
